A study of Arabidopsis thaliana with 9 samples.

Results

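The 10 genes described here encode proteins that move amino acids across plant membranes or regulate that movement: LHT1, the 6 amino acid permeases AAP1 to AAP6, the exporters UMAMIT14 and UMAMIT28, and GDU1. They were taken by locus ID from count files that list 33602 genes, and all 10 were found. Transcripts were measured by sequencing of polyA-selected mRNA from entire rosettes of Arabidopsis thaliana at an age of 21 days, from plants kept on soil under 16 hours of light and 8 hours of darkness. There were 3 libraries each of pdx3-3 (SALK_054167C), of pdx3-4 (GK-260E03) and of wild type, each called a biological replicate in the labels. All 3 genotypes are in the ecotype Col-0, and each mutant is a single insertion line in PDX3, which encodes the enzyme that oxidises its vitamin B6 precursors to the cofactor pyridoxal phosphate. Nothing states whether the libraries of a genotype came from separate sowings, so the p-values measure the spread between these libraries only.

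Plants carry much of their organic nitrogen as amino acids in xylem and phloem, and since membranes hold these back, each step in or out of a cell needs a carrier. LHT1 and the AAP permeases are proton-coupled importers of the plasma membrane. UMAMIT carriers let amino acids leave cells, for example around the veins and in developing seeds, and GLUTAMINE DUMPER proteins such as GDU1, small proteins with a single membrane span, raise amino acid export when they are overproduced. In a rosette, LHT1 is known for uptake into mesophyll cells, and AAP permeases are known mainly from the vasculature.

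The libraries held 15912737 to 21938941 counts, of which 4186 to 7091 fell on the 10 genes. A level is given here in CPM, the count divided by the library total and multiplied by 1000000, in which 1 count is worth 0.0456 to 0.0628 CPM. PDX3, the disrupted gene, had 8.22 to 10.8 CPM in pdx3-3, 42.7 to 51.5 CPM in pdx3-4 and 78.65 to 90.1 CPM in wild type, so it was lowest in pdx3-3 and highest in wild type, without overlap. The libraries of a genotype are not alike in every respect. Wild type 3 held more vascular transcript than any other library, with 913 CPM summed over 12 phloem markers, against 453 to 659 CPM in the other 8 libraries, and 108.5 CPM summed over 7 xylem markers, against 50.8 to 73.0 CPM. Chloroplast transcripts took 0.536% of the counts of pdx3-3 1 and 0.174% of pdx3-3 2, against 0.0162% to 0.0532% in the other 7 libraries. Results for single transport genes that rest on wild type 3 are given below with and without it, and calls of the markers only with it. The 4 leaf markers summed to 34380 CPM or more in every library. The 8 root markers summed to 19.6 to 49.1 CPM in pdx3-3, 39.2 to 61.2 CPM in pdx3-4 and 38.5 to 43.2 CPM in wild type, with 1 of them, RHD6, at 0 in every library. The 4 flower markers summed to 1.82 to 3.57 CPM in pdx3-3, 0.625 to 1.69 CPM in pdx3-4 and 3.35 to 4.29 CPM in wild type, none being at 0. Of 4 seed markers CRC and OLEO1 had no count in any library, and the sum was at most 0.193 CPM.

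The genes lie on chromosomes 1, 2, 4 and 5 of the TAIR10.1 reference. LHT1 (AT5G40780) is at chr5:16323567-16327382 on the plus strand and has 8 exons in its longest transcript and 446 residues. The permeases of 466 to 493 residues are AAP1 (AT1G58360, chr1:21676388-21680519, plus strand, 6 exons), AAP2 (AT5G09220, chr5:2866222-2869156, plus strand, 7 exons), AAP3 (AT1G77380, chr1:29074879-29077390, minus strand, 7 exons), AAP4 (AT5G63850, chr5:25550937-25553656, plus strand, 7 exons), AAP5 (AT1G44100, chr1:16764392-16767685, minus strand, 5 exons) and AAP6 (AT5G49630, chr5:20142430-20146690, minus strand, 6 exons). The exporters are UMAMIT14 (AT2G39510, chr2:16491143-16493343, minus strand, 7 exons, 374 residues) and UMAMIT28 (AT1G01070, chr1:38444-41017, minus strand, 6 exons, 365 residues). GDU1 (AT4G31730, chr4:15361012-15362074, plus strand) has 1 exon and 158 residues.

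The permeases are related in sequence, yet share no long identical stretch. Over the whole alignment, gaps included, coding sequences matched at 77.7% between AAP2 and AAP4, the closest pair. The match was 69.9% between AAP1 and AAP6 and 60.2% to 69% in the other pairs of AAP genes. AAP genes matched UMAMIT genes at 42.1% to 44.3% and GDU1 at 23.2% to 25.1%. LHT1 matched the 6 AAP genes at 47.5% to 49.9%, little above its 44.6% and 45.6% with the UMAMIT genes. No stretch of 50 bases in the longest transcript of LHT1, GDU1, UMAMIT14 or any AAP gene occurred in the genome outside the gene's own span. For UMAMIT28 32 of 1643 such stretches did (1.95%), and whether these copies lie in genes was not looked up. The annotated ends of AAP3 and AT1G77370 overlap by 15 bases on opposite strands, and the microRNA gene MIR5024 lies within AAP5 on the same strand, over 180 bases.

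The 300 bases before the annotated start are shown for the genes that were called higher in both mutants with the largest changes, LHT1 and AAP5, and for those called lower with the largest changes, AAP4 and UMAMIT28, so that genes that move together can be read side by side. They are RefSeq sequence of TAIR10.1, written 5′ to 3′ on the strand of the gene, from chr5:16323267-16323566 (plus), chr1:16767686-16767985 (minus), chr5:25550637-25550936 (plus) and chr1:41018-41317 (minus), with matches to the motifs searched in capitals.
LHT1: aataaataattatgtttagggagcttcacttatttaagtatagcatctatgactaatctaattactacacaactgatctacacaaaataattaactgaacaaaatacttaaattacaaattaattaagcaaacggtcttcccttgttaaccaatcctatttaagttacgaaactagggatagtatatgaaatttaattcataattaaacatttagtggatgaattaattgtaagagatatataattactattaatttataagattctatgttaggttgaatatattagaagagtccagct
AAP5: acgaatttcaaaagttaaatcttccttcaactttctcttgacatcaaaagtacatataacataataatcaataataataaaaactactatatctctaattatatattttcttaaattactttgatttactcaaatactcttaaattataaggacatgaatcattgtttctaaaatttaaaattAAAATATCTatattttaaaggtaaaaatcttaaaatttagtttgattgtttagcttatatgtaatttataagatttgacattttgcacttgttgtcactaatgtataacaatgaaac
AAP4: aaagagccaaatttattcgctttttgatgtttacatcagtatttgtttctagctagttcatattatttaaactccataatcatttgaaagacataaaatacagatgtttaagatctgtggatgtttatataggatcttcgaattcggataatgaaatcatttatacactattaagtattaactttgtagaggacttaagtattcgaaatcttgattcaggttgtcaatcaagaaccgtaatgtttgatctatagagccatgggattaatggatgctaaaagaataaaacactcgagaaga
UMAMIT28: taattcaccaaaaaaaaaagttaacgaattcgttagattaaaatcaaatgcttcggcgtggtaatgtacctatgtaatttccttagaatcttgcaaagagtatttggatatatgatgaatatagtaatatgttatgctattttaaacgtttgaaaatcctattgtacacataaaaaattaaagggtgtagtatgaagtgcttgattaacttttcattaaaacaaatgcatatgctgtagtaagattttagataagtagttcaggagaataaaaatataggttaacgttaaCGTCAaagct

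A set of 5 motifs were looked for on both strands of these windows and of the same windows before 27443 genes: the W-box (TTGACC or TTGACT), the TGA factor site (TGACG), the G-box (CACGTG), the GCC box (GCCGCC) and the evening element (AAAATATCT). The evening element, a motif of clock-controlled genes, began at position −117 from the start of AAP5, on the strand of the gene, and was in no other window of the 10 genes, against 2.79% of all windows. A TGA factor site was found at position −10 from the start of UMAMIT28, on the other strand, and in no other window of the 10 genes (21.3% of all windows). W-boxes stood before AAP3 and AAP6 (32.3% of all windows), and neither a G-box (7.09%) nor a GCC box (2.26%) stood before any of the 10 genes. The LHT1 and AAP4 windows held none of these motifs. These are matches of letters in short windows, and binding was not measured.

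LHT1 and AAP5 rose in each mutant, whereas AAP1, AAP4 and UMAMIT28 fell in each. In edgeR's quasi-likelihood test with Benjamini-Hochberg adjustment over 18783 genes, called at an adjusted p under 0.05, 3 of the 10 genes were higher in pdx3-3 than in wild type, 4 were lower, 2 were not called and 1 was too low to test, GDU1 among the higher having passed the filter only through mutant libraries. Over all genes tested in that comparison 36.4% were called, 19.0% higher and 17.5% lower. In pdx3-4 against wild type 2 of the 10 were higher, 3 lower and 4 not called, where 39.2% of all genes were called, 20.9% higher and 18.4% lower. The median log2 fold change of the 9 genes tested was −0.41 in pdx3-3 and 0.10 in pdx3-4, against −0.03 and −0.01 over all genes tested, with the genes moving in opposite directions. Both comparisons use the same wild-type libraries, so they are not separate evidence. With upper-quartile scaling the median of all genes shifted by −0.12 in both comparisons on the log2 scale. The calls over all genes were then 2879 higher and 5553 lower in pdx3-3, against 3562 and 3284 with TMM scaling, and 3090 higher and 5317 lower in pdx3-4, against 3921 and 3448. With library size alone there were 4147 higher and 2531 lower in pdx3-3, and 4440 and 2778 in pdx3-4. LHT1, AAP1, AAP4, AAP5 and UMAMIT28 kept their direction and their calls under each of these scalings.

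**Figure D1:**
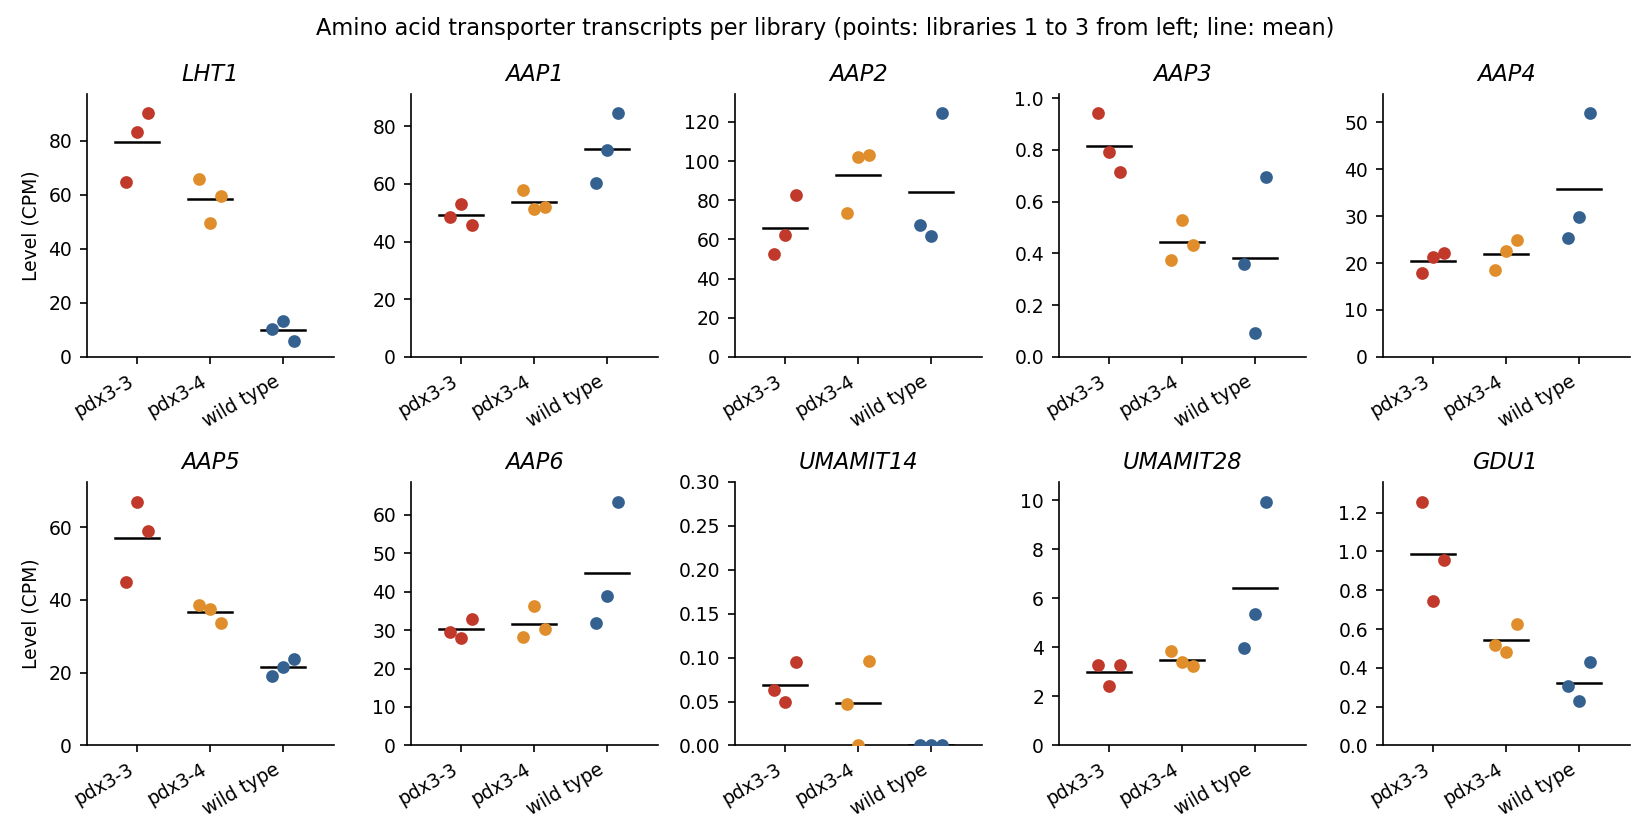
Level of each of the 10 genes in CPM in the 3 libraries of pdx3-3, pdx3-4 and wild type. Points are libraries 1 to 3 from left, lines are means, and each panel has its own axis from 0. All pdx3-3 and pdx3-4 points lie above the wild-type points for LHT1, AAP5 and GDU1 and below them for AAP1, AAP4 and UMAMIT28. Wild type 3 is the highest wild-type point for every AAP gene, UMAMIT28 and GDU1, and the lowest for LHT1.

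LHT1, the high-affinity importer of neutral and acidic amino acids in mesophyll and root surface cells, had the largest change of the 10 genes. Its level was 64.7, 83.2 and 90.25 CPM in pdx3-3, 65.8, 49.7 and 59.7 CPM in pdx3-4, and 10.45, 13.45 and 5.78 CPM in wild type. Every mutant library stood well above every wild-type library, while the 2 mutants overlapped. In pdx3-3 LHT1 was 7.62-fold higher than in wild type (log2 2.93, SE 0.25, adjusted p = 7.98e-06). In pdx3-4 it was 5.62-fold higher (log2 2.49, SE 0.25, adjusted p = 2.51e-05). Leaving out any 1 library kept both calls, with log2 2.65 to 3.25 in pdx3-3 and 2.21 to 2.81 in pdx3-4.

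AAP5, a permease known for uptake of the basic amino acids lysine and arginine by roots, was the other importer that rose in both mutants. It had 44.9, 67.1 and 59.1 CPM in pdx3-3, 38.6, 37.5 and 33.7 CPM in pdx3-4, and 19.15, 21.5 and 23.9 CPM in wild type. The 3 genotypes did not overlap, with pdx3-3 highest and wild type lowest. AAP5 was 2.55-fold higher in pdx3-3 than in wild type (log2 1.35, SE 0.13, adjusted p = 1.775e-05) and 1.64-fold higher in pdx3-4 (log2 0.71, SE 0.13, adjusted p = 0.00144). Both calls held without any 1 library.

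AAP1, an importer of neutral amino acids and glutamate with known roles in root uptake and in seed filling, fell moderately in both mutants. Its level was 48.3, 53.2 and 45.9 CPM in pdx3-3, 57.7, 51.4 and 51.9 CPM in pdx3-4, and 60.2, 71.7 and 84.5 CPM in wild type. The mutants overlapped each other, and all 6 mutant libraries lay below the wild-type libraries. The log2 fold change was −0.61 in pdx3-3 (SE 0.11, adjusted p = 0.00136) and −0.48 in pdx3-4 (SE 0.11, adjusted p = 0.00523). Neither call was lost when 1 library was left out, with log2 −0.72 to −0.51 in pdx3-3 and −0.59 to −0.37 in pdx3-4.

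AAP4, a permease of leaf veins, had 17.8, 21.25 and 22.2 CPM in pdx3-3, 18.5, 22.5 and 25.0 CPM in pdx3-4, and 25.4, 29.9 and 51.95 CPM in wild type. Wild type 3 stood far above the other wild-type libraries, and the lowest wild-type library was close to the highest pdx3-4 library. AAP4 was lower in pdx3-3 (log2 −0.85, SE 0.22, adjusted p = 0.0120) and in pdx3-4 (log2 −0.74, SE 0.22, adjusted p = 0.0210). Without wild type 3 the log2 fold changes were −0.52 in pdx3-3 and −0.40 in pdx3-4 and both calls held. The pdx3-4 call was lost without pdx3-4 1 (adjusted p = 0.0805) or pdx3-4 2 (adjusted p = 0.0564).

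AAP6, a high-affinity permease of xylem parenchyma that also takes up aspartate, had 29.5, 28.0 and 33.0 CPM in pdx3-3, 28.1, 36.4 and 30.35 CPM in pdx3-4, and 31.9, 39.0 and 63.5 CPM in wild type. The wild-type and mutant libraries overlapped, and wild type 3 was again the highest. The log2 fold change was −0.62 in pdx3-3 (SE 0.20, adjusted p = 0.0337) and −0.55 in pdx3-4 (SE 0.20, adjusted p = 0.0501), on either side of the threshold. The pdx3-3 call was lost without wild type 3 (log2 −0.31, adjusted p = 0.0808), without any 1 pdx3-3 library (0.0553 to 0.108) and without pdx3-4 3 (0.0506). The pdx3-4 value passed without wild type 1 (adjusted p = 0.00796), and was −0.24 on the log2 scale without wild type 3.

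AAP2, the phloem permease that moves amino acids from xylem to phloem along the transport path, was not called in either mutant. It had 52.35, 62.2 and 82.7 CPM in pdx3-3, 73.3, 102.1 and 103.3 CPM in pdx3-4, and 67.1, 61.6 and 124.5 CPM in wild type. Wild type 3 was the highest of all libraries and wild type 2 lay within the pdx3-3 range, so the genotypes overlapped. Its log2 fold change was −0.41 in pdx3-3 (SE 0.25, adjusted p = 0.237) and 0.10 in pdx3-4 (SE 0.25, adjusted p = 0.783). Without wild type 3 it was −0.04 in pdx3-3 and 0.46 in pdx3-4, and with upper-quartile scaling it turned to −0.03 in pdx3-4.

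AAP3, a permease of root phloem that accepts basic amino acids, was scarce in rosettes. It had 0.943, 0.793 and 0.715 CPM in pdx3-3, 0.375, 0.529 and 0.434 CPM in pdx3-4, and 0.360, 0.0912 and 0.696 CPM in wild type. These rest on 46 counts in all pdx3-3 libraries, 28 in pdx3-4 and 22 in wild type. It passed the filter on low counts by its 3 pdx3-3 libraries, with 1 library over the filter level in each of the other genotypes. The log2 fold change was 1.06 in pdx3-3 (SE 0.48, adjusted p = 0.111) and 0.21 in pdx3-4 (SE 0.52, adjusted p = 0.776), neither being called. The pdx3-3 value passed without wild type 3 (log2 1.78, adjusted p = 0.0172) and was 0.58 on the log2 scale without wild type 2 (adjusted p = 0.274). In pdx3-4 it was 0.93 without wild type 3 and −0.27 without wild type 2 on that scale, and was not called in either case.

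The exporters among the 10 genes were low in rosettes, which does not hold for every UMAMIT gene (UMAMIT41 had a mean of 48.9 CPM in wild type). UMAMIT28, an exporter known from the endosperm of seeds, had 3.27, 2.43 and 3.29 CPM in pdx3-3, 3.85, 3.41 and 3.23 CPM in pdx3-4, and 3.96, 5.38 and 9.95 CPM in wild type. All mutant libraries lay below the wild-type libraries, pdx3-4 1 only just, and wild type 3 had the highest level. UMAMIT28 was 0.451 times its wild-type level in pdx3-3 (log2 −1.15, SE 0.29, adjusted p = 0.00937) and 0.529 times in pdx3-4 (log2 −0.92, SE 0.28, adjusted p = 0.0229). Without wild type 3 the log2 fold change was −0.73 in pdx3-3, still called, and −0.50 in pdx3-4 (adjusted p = 0.0587). The pdx3-4 call was also lost without pdx3-4 2 (0.0666) or pdx3-4 3 (0.0733).

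UMAMIT14, an exporter of root phloem unloading and of seed tissue, was at the limit of detection. It had 1, 1 and 2 counts in the pdx3-3 libraries, 1, 0 and 2 in pdx3-4, and 0 in each wild-type library. These come to 0.0701 CPM over the pdx3-3 libraries and 0.0477 CPM over the pdx3-4 libraries, while 0 of 60055950 counts in wild type allows up to 0.04995 CPM, a limit for counting error only. A difference between genotypes was not detectable at this depth, and the gene was not tested.

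GDU1, the regulator that raises amino acid export when overproduced, was higher in pdx3-3 at a low level. It had 1.26, 0.743 and 0.954 CPM in pdx3-3, 0.516, 0.481 and 0.626 CPM in pdx3-4, and 0.309, 0.228 and 0.428 CPM in wild type, from 55, 34 and 19 summed counts. The 3 genotypes did not overlap. GDU1 was 2.91-fold higher in pdx3-3 (log2 1.54, SE 0.35, adjusted p = 0.00527) and had log2 0.71 in pdx3-4 (SE 0.37, adjusted p = 0.160). No wild-type library reached the filter level of 0.482 CPM, so it passed the filter only through mutant libraries and had to differ to be tested. With a filter of at least 1 CPM in 3 libraries it was not tested, and 2 of the 10 genes were then called higher in pdx3-3.

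**Figure D2:**
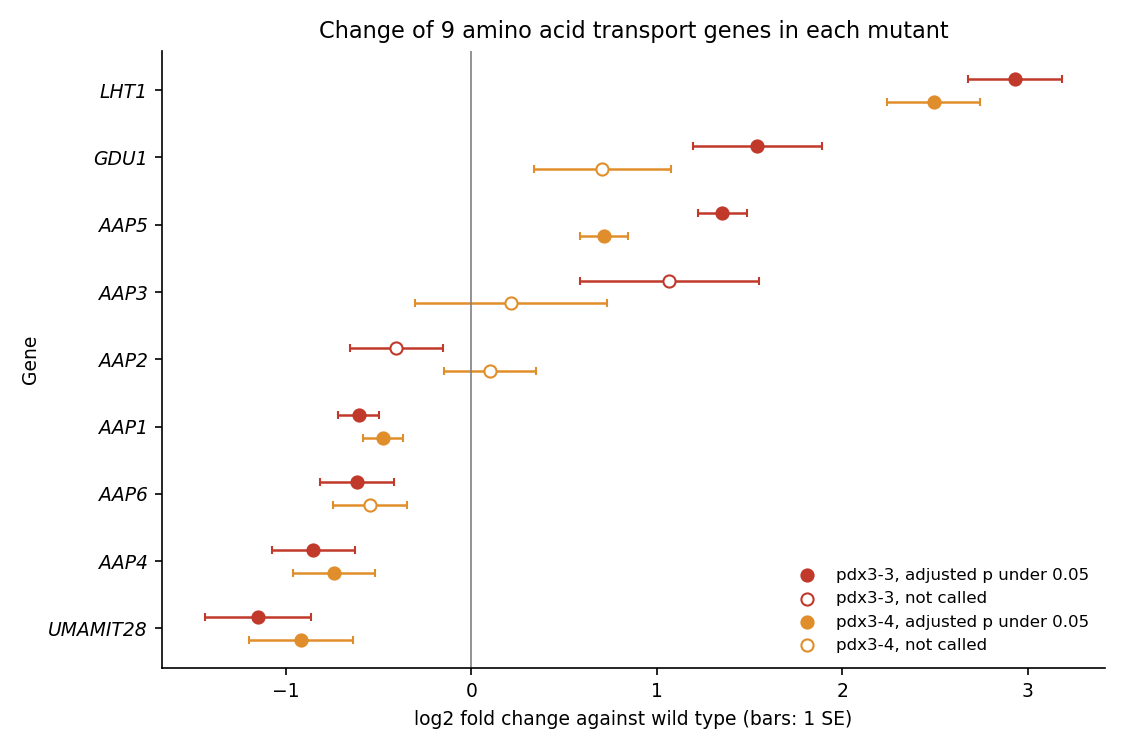
Log2 fold change of the 9 tested genes against wild type in pdx3-3 (red) and pdx3-4 (orange), with bars of 1 SE, from edgeR's fit of all 9 libraries. Filled points have an adjusted p under 0.05. LHT1 stands at 2.93 and 2.49 and UMAMIT28 at −1.15 and −0.92.

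The mutants differed from each other in AAP5. It was 1.56-fold higher in pdx3-3 than in pdx3-4 (log2 0.64, SE 0.13, adjusted p = 0.0155, edgeR's quasi-likelihood test), with all 3 pdx3-3 libraries above all 3 pdx3-4 libraries. This was the single call among the 9 genes tested, in a comparison where 6.16% of all genes were called, 3.32% higher and 2.84% lower. It was lost without pdx3-3 2 (adjusted p = 0.0580), pdx3-4 2 (0.0562) or pdx3-4 3 (0.0882). LHT1 had log2 0.44 between the mutants (SE 0.22, adjusted p = 0.311), GDU1 0.84 (SE 0.31, adjusted p = 0.162), AAP3 0.85 (SE 0.46, adjusted p = 0.347) and AAP2 −0.50 (SE 0.25, adjusted p = 0.297). AAP1, AAP4, AAP6 and UMAMIT28 had log2 −0.23 to −0.07, with adjusted p of 0.577 to 0.903. A p over the threshold does not show that the mutants were alike in these genes. Without wild type 3 and pdx3-3 1 together, a setting chosen after the data were seen, LHT1 was called higher in pdx3-3 than in pdx3-4 as well (log2 0.57, adjusted p = 0.0182).

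Divided by the length of the longest annotated transcript, levels can be set beside each other across genes. In pdx3-3 LHT1 came first in mean CPM per kb (41.8), before AAP2 (34.1), AAP5 (26.4), AAP1 (25.9), AAP6 (15.5) and AAP4 (9.71). The ranges of the first 4 over the libraries overlapped from one to the next. Within each pdx3-3 library, however, LHT1 lay above AAP2, and AAP2 above both AAP5 and AAP1, while AAP5 lay above AAP1 in 2 of the 3 libraries. In pdx3-4 AAP2 led (48.3), with no overlap with LHT1 (30.7), which overlapped AAP1 (28.3) and lay above it in 2 of the 3 libraries. AAP5 (16.9) and AAP6 (16.3) overlapped too, and AAP4 followed (10.5). UMAMIT28, GDU1 and AAP3 followed in this order in both mutants (1.77, 0.926 and 0.432 in pdx3-3, 2.07, 0.509 and 0.236 in pdx3-4), without overlap, and UMAMIT14 was last. In wild type the order was AAP2 (43.8), AAP1 (38.0), AAP6 (23.0), AAP4 (17.02), AAP5 (9.94), LHT1 (5.21), UMAMIT28 (3.80), GDU1 (0.303) and AAP3 (0.202), with UMAMIT14 at 0. Each of AAP2, AAP1 and AAP6 overlapped the next in this order in its range over the libraries, as did LHT1 and UMAMIT28, and GDU1 and AAP3. Within each wild-type library AAP1 lay above AAP6, AAP6 above AAP4 and GDU1 above AAP3, while AAP2 lay above AAP1, and LHT1 above UMAMIT28, in 2 of the 3.

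LHT1 took 25.3%, 27.0% and 27.5% of the summed CPM per kb of the 10 genes in the pdx3-3 libraries, 23.5%, 16.8% and 19.85% in pdx3-4, and 4.90%, 5.69% and 1.63% in wild type. AAP5 took 15.4% to 19.1% in pdx3-3, 9.83% to 12.1% in pdx3-4 and 5.89% to 7.99% in wild type. The share of AAP1 was 14.0% to 18.9% in pdx3-3, 17.3% to 20.65% in pdx3-4 and 23.8% to 30.35% in wild type, and that of AAP4 was 6.11% to 6.29% in pdx3-3, 5.99% to 7.52% in pdx3-4 and 10.8% to 13.2% in wild type. No mutant library overlapped a wild-type library in any of these 4 shares. In wild type 3 the shares of LHT1 and AAP5 were the lowest and that of AAP4 the highest of all libraries. The summed level of the 10 genes, not divided by length, was 263, 319 and 338 CPM in pdx3-3, 287, 304 and 308 CPM in pdx3-4, and 219, 243 and 365 CPM in wild type, so the genotypes overlapped in the sum.

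**Figure D3:**
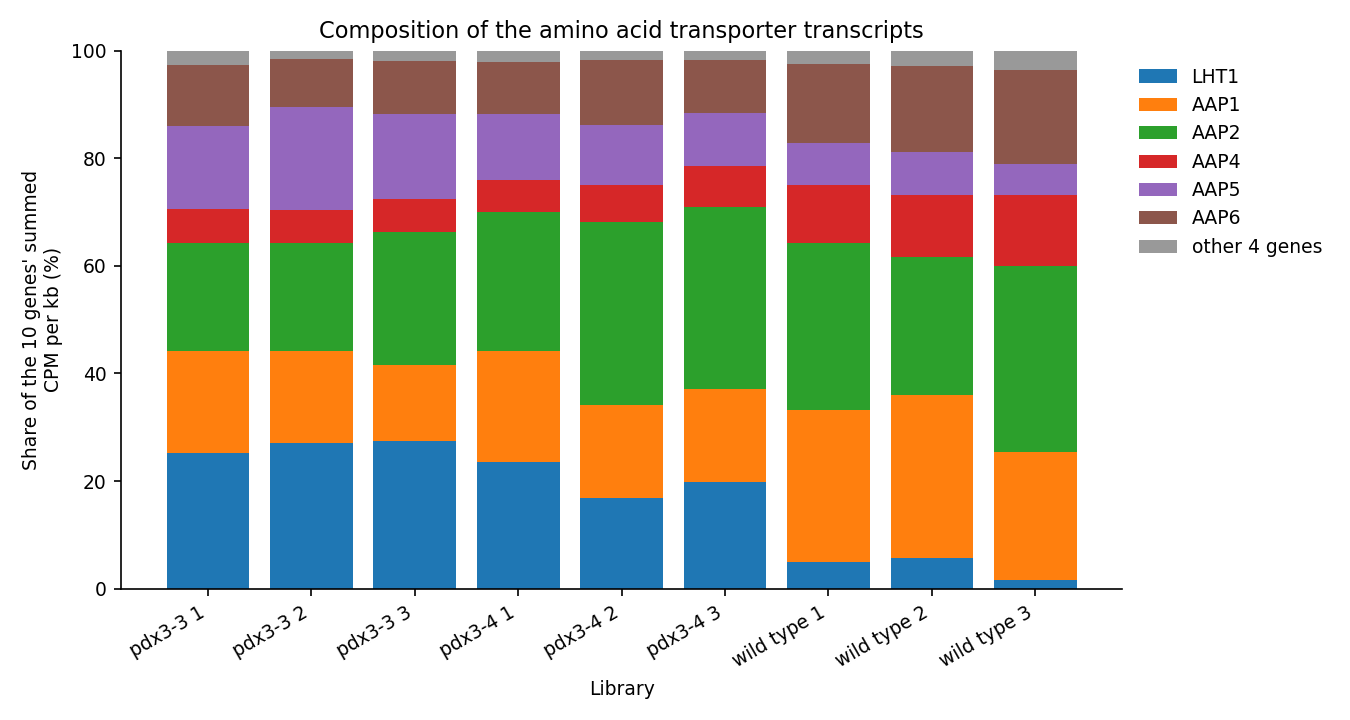
Share of the summed CPM per kb of the 10 genes taken by each gene in each library (%), stacked to 100, with AAP3, UMAMIT14, UMAMIT28 and GDU1 drawn together. LHT1 takes 16.8% or more in every mutant library and 5.69% or less in every wild-type library.

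Phloem marker transcripts were lower in the mutants, as were the permeases that fell. The 12 phloem markers summed to 463, 453 and 513 CPM in pdx3-3, 525, 560.5 and 569 CPM in pdx3-4, and 600, 659 and 913 CPM in wild type. Of these markers, none of which was at 0, 8 were called in pdx3-3 and 4 in pdx3-4, all lower, which is 66.7% and 33.3% of the markers beside 36.4% and 39.2% of all genes called in either direction and 17.5% and 18.4% called lower. The 7 xylem markers summed to 50.8 to 73.0 CPM in pdx3-3, 58.6 to 68.8 CPM in pdx3-4 and 63.0 to 108.5 CPM in wild type, with 2 lower in each mutant (28.6%) and none at 0, and each mutant overlapped wild type in this sum. The 4 leaf markers summed to 34380 to 39310 CPM in pdx3-3, 34800 to 36730 CPM in pdx3-4 and 44980 to 46970 CPM in wild type, with 4 lower in pdx3-3 and 3 in pdx3-4. All these marker calls include wild type 3, the library with the most vascular transcript, and were not repeated without it. In entire rosettes, fewer cells of a type and less transcript per cell cannot be told apart.

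Set against the phloem markers, a ratio chosen after the data were seen and given as a description, AAP1, AAP4, AAP6 and UMAMIT28 overlapped between each mutant and wild type. Per 100 CPM of phloem markers, AAP6 had 6.37, 6.19 and 6.43 CPM in pdx3-3, 5.36, 6.49 and 5.34 CPM in pdx3-4, and 5.31, 5.92 and 6.95 CPM in wild type. AAP4 had 3.84, 4.69 and 4.32 CPM in pdx3-3, 3.53, 4.01 and 4.40 CPM in pdx3-4, and 4.24, 4.54 and 5.69 CPM in wild type on that scale. The part of phloem content in the levels of these 4 genes was not tested. The marker sum was lower in every mutant library than in every wild-type library, so the division raises the mutants relative to wild type. It therefore moves genes that fell toward overlap, and genes already higher in CPM in every mutant library had to stay apart. LHT1 and AAP5 were such genes, so their distance from wild type on this scale is no separate evidence. LHT1 had 14.0, 18.4 and 17.6 CPM per 100 CPM of phloem markers in pdx3-3, 12.5, 8.87 and 10.5 in pdx3-4, and 1.74, 2.04 and 0.633 in wild type. AAP5 had 9.71, 14.8 and 11.5 in pdx3-3, 7.36, 6.69 and 5.92 in pdx3-4, and 3.19, 3.27 and 2.61 in wild type. GDU1 was also above wild type in every library of both mutants on this scale, AAP2 in every pdx3-4 library and AAP3 in every pdx3-3 library (0.204, 0.175 and 0.1395 in pdx3-3, against at most 0.0762 in wild type). For GDU1 and AAP3 the same held in CPM, so the ratio adds no evidence. Both had few counts, and GDU1 passed the filter only through mutant libraries and AAP3 by its pdx3-3 libraries. AAP2 overlapped between pdx3-4 and wild type in CPM, and the lower marker sum raises it in pdx3-4 on this scale.

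**Figure D4:**
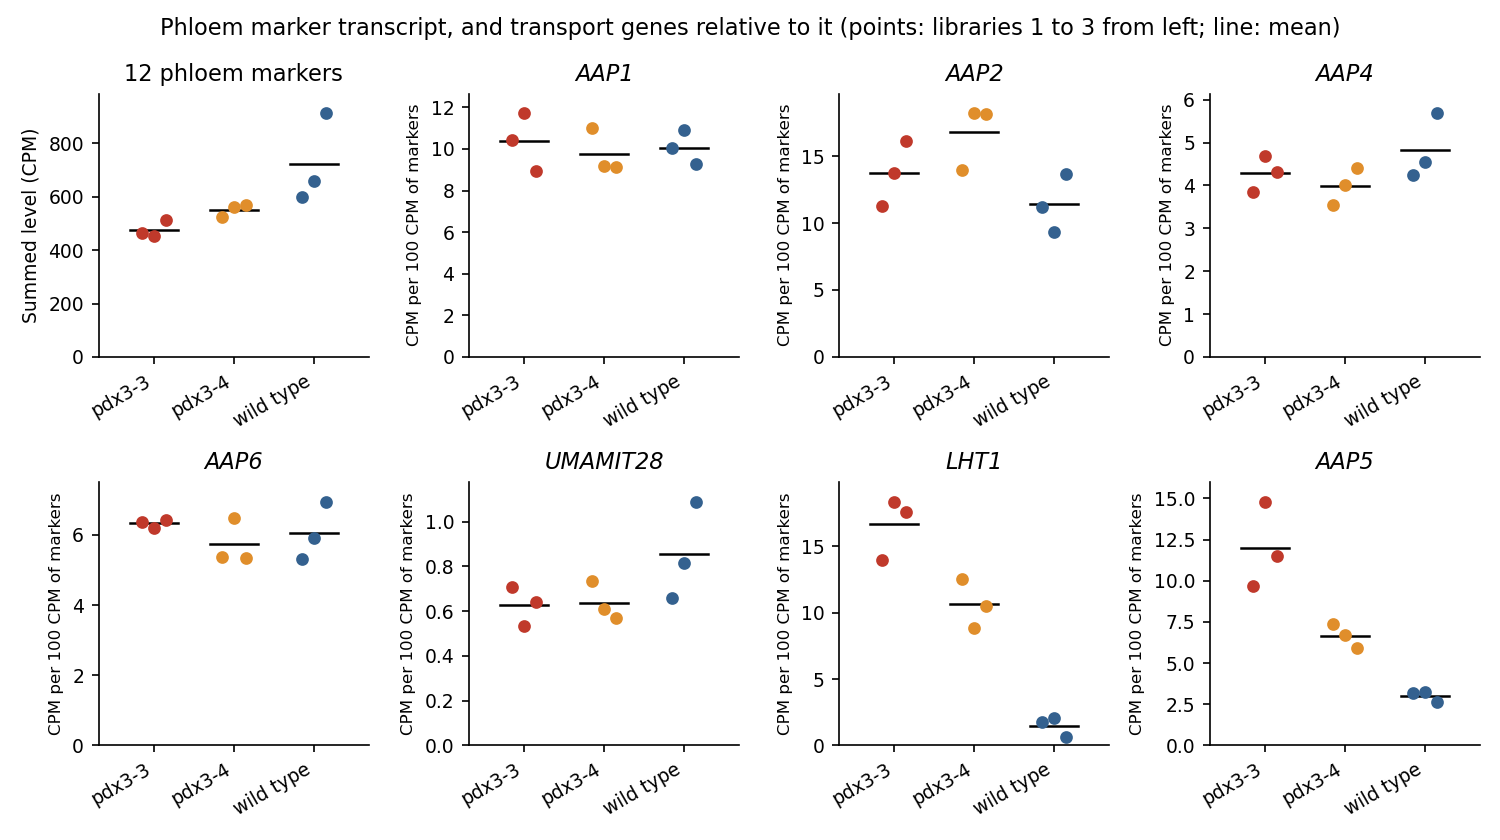
Summed level of 12 phloem markers (CPM, first panel) and level of 7 of the genes per 100 CPM of those markers, in the 3 libraries of pdx3-3, pdx3-4 and wild type. Points are libraries 1 to 3 from left and lines are means. AAP1, AAP4, AAP6 and UMAMIT28 overlap between each mutant and wild type, while LHT1 and AAP5 do not. The marker sum is lower in every mutant library than in every wild-type library. Dividing by it moves genes that fell toward wild type and keeps genes that rose apart.

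Other genes of amino acid transport were called in both directions among the importers, and lower than wild type in each called case among genes with a UMAMIT symbol. A list of 97 further genes held 70 that were tested, of which 8 were higher and 15 lower in pdx3-3 and 10 were higher and 13 lower in pdx3-4. That is 32.9% of the tested list in each comparison, near the 36.4% and 39.2% of all genes. The list also holds relatives of GDU1, ubiquitin ligases, UMAMIT pseudogenes and loci taken by a MtN21 description alone. Not every gene in it is therefore known to carry amino acids. Among 25 tested importers and vacuolar or organellar carriers outside the 10 genes, 6 were higher and 4 lower in pdx3-3, and 6 were higher and 2 lower in pdx3-4. Of 5 tested genes in a list of further UMAMIT genes named from earlier work, 3 were called in pdx3-3 and 2 in pdx3-4, all lower. That list holds UMAMIT5, named WAT1 in the reference, and export by each gene was not checked. Of 24 further tested genes with a UMAMIT symbol, 7 (29.2%) were called in each mutant, all lower, beside 17.5% and 18.4% of all genes called lower. Of 8 tested genes without such a symbol, taken by a MtN21 description alone, 1 was higher and 1 lower in pdx3-3. In pdx3-4 1 of these was higher and 2 were lower. What these 8 genes carry was not checked.

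LHT7 (AT4G35180), a relative of LHT1, had the largest rise in pdx3-3 of the 16 further genes named. It had 2.64, 3.22 and 3.29 CPM in pdx3-3, 1.27, 1.49 and 1.30 CPM in pdx3-4, and 0.360, 0.319 and 0.268 CPM in wild type, with no overlap between genotypes. It was higher in pdx3-3 (log2 3.19, SE 0.23, adjusted p = 2.44e-06) and in pdx3-4 (log2 2.02, SE 0.25, adjusted p = 0.000103), and higher in pdx3-3 than in pdx3-4 (log2 1.17, SE 0.19, adjusted p = 0.00556). No wild-type library of LHT7 reached the filter level of 0.482 CPM, so it passed the filter only through mutant libraries and had to differ to be tested.

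AVT6C (AT3G56200), of a family that holds vacuolar amino acid carriers, had 66.4, 85.2 and 78.05 CPM in pdx3-3, 102, 97.0 and 102.1 CPM in pdx3-4, and 29.2, 22.5 and 23.9 CPM in wild type. Here pdx3-4 was the higher of the mutants in every library, though the difference between them was not called (log2 −0.39, SE 0.11, adjusted p = 0.0541). It was higher in pdx3-3 (log2 1.55, SE 0.11, adjusted p = 2.25e-06) and in pdx3-4 (log2 1.94, SE 0.11, adjusted p = 1.03e-06). CAT1 (AT4G21120, named AAT1 in the reference), an importer of basic amino acids, rose by log2 2.31 in pdx3-3 (SE 0.41, adjusted p = 0.00128) and 1.44 in pdx3-4 (SE 0.43, adjusted p = 0.0209). The pdx3-4 call of CAT1 was lost without wild type 2 or 3 or pdx3-4 1 or 3 (adjusted p = 0.0547 to 0.0882). LUL3 (AT5G19080), of the family of the ubiquitin ligase LOG2 that acts with GDU1, rose by log2 0.44 in pdx3-3 (SE 0.11, adjusted p = 0.00773) and 0.48 in pdx3-4 (SE 0.11, adjusted p = 0.00466). Of the 5 LOG2 family genes 1 was higher in pdx3-3 and 2 in pdx3-4, and of 3 tested relatives of GDU1 1 was higher in pdx3-4. These are counts in very short lists, beside 19.0% of all genes called higher in pdx3-3 and 20.9% in pdx3-4.

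Several of the smaller rises were near the threshold, while the pdx3-4 calls of BAT1 and CAT2 held without any 1 library. BAT1 (AT2G01170), a carrier for both uptake and release, had a log2 fold change of 0.33 in pdx3-3 and 0.41 in pdx3-4 (adjusted p = 0.0224 and 0.00656), the pdx3-3 call being lost without wild type 3 or pdx3-3 2 (0.0588 and 0.0774). CAT5 (AT2G34960) had a log2 fold change of 0.86 in pdx3-3 and 0.57 in pdx3-4 (adjusted p = 0.0220 and 0.104), and the pdx3-3 call was lost without pdx3-3 2 (0.0982) and with only the 2 groups fitted (0.0517). The pdx3-4 value of CAT5 was 0.32 on the log2 scale without wild type 3, and was called without wild type 1 (log2 0.82, adjusted p = 0.0406). CAT8 (AT1G17120) had log2 0.25 and 0.30 in pdx3-3 and pdx3-4 (adjusted p = 0.0395 and 0.0154), the pdx3-3 call being lost without any 1 wild-type library (0.06205 to 0.0948) or without pdx3-3 2 or 3 (0.1001 and 0.108), and the pdx3-4 call without pdx3-4 3 (0.0602). The pdx3-3 call of CAT8 was also lost with the replicate block (0.0637) and with DESeq2 (0.0515). CAT2 (AT1G58030), a cationic amino acid carrier of the vacuole membrane, had a log2 fold change of 0.15 in pdx3-3 and 0.31 in pdx3-4 (adjusted p = 0.185 and 0.0131), the pdx3-3 value being called without pdx3-3 1 (0.0439). With upper-quartile scaling BAT1 and CAT8 were not called in pdx3-3, nor CAT2 and CAT8 in pdx3-4.

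Among the carriers that fell, UMAMIT17 (AT4G08300) had 9.11, 9.86 and 9.73 CPM in pdx3-3, 10.6, 11.1 and 12.8 CPM in pdx3-4, and 19.8, 23.8 and 33.9 CPM in wild type, without overlap between the mutants and wild type. It was lower in pdx3-3 (log2 −1.48, SE 0.17, adjusted p = 5.66e-05) and in pdx3-4 (log2 −1.21, SE 0.16, adjusted p = 0.000187). UMAMIT11 (AT2G40900), an exporter known from seeds and silique veins, was lower in pdx3-3 (log2 −1.51, SE 0.21, adjusted p = 0.000261) and in pdx3-4 (log2 −1.70, SE 0.21, adjusted p = 0.000112). UMAMIT41 (AT3G28050) was lower by log2 −0.51 and −0.56 in pdx3-3 and pdx3-4 (adjusted p = 0.000732 and 0.000352). These 3 calls held in both mutants without any 1 library. UMAMIT27 (AT1G11450) fell by 1.41 on the log2 scale in pdx3-3 (adjusted p = 0.00149) and by 0.70 in pdx3-4 (adjusted p = 0.0373), the pdx3-4 call being lost without wild type 2 or 3, pdx3-3 1 or any 1 pdx3-4 library (0.0526 to 0.1215). That call was also lost with library size alone (0.0577), without a filter (0.0577), with the replicate block (0.0591) and with DESeq2 (0.117). UMAMIT31 (AT4G01440) had a log2 fold change of −1.10 in pdx3-3 and −0.49 in pdx3-4 (adjusted p = 0.00505 and 0.123), the pdx3-4 value being −0.20 without wild type 3. UMAMIT13 (AT2G37450) had log2 −0.26 and −0.38 in pdx3-3 and pdx3-4 (adjusted p = 0.0273 and 0.00366), the pdx3-3 call being lost without wild type 2 or pdx3-3 2 or 3 (0.0654 to 0.112), with library size alone (0.0705), with only the 2 groups fitted (0.0535) and with DESeq2 (0.0520).

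Of the importers that fell, ANT1 (AT3G11900), a carrier of aromatic and neutral amino acids, was lower in pdx3-3 (log2 −0.40, SE 0.093, adjusted p = 0.00693) and in pdx3-4 (log2 −0.48, SE 0.093, adjusted p = 0.00200). PROT3 (AT2G36590), a transporter of proline and compatible solutes of the leaf epidermis, was lower in pdx3-3 (log2 −0.83, SE 0.23, adjusted p = 0.0173) and in pdx3-4 (log2 −1.11, SE 0.24, adjusted p = 0.00354). The pdx3-3 call of PROT3 was lost without wild type 2 or pdx3-3 3 (adjusted p = 0.06285 and 0.0666).

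**Figure D5:**
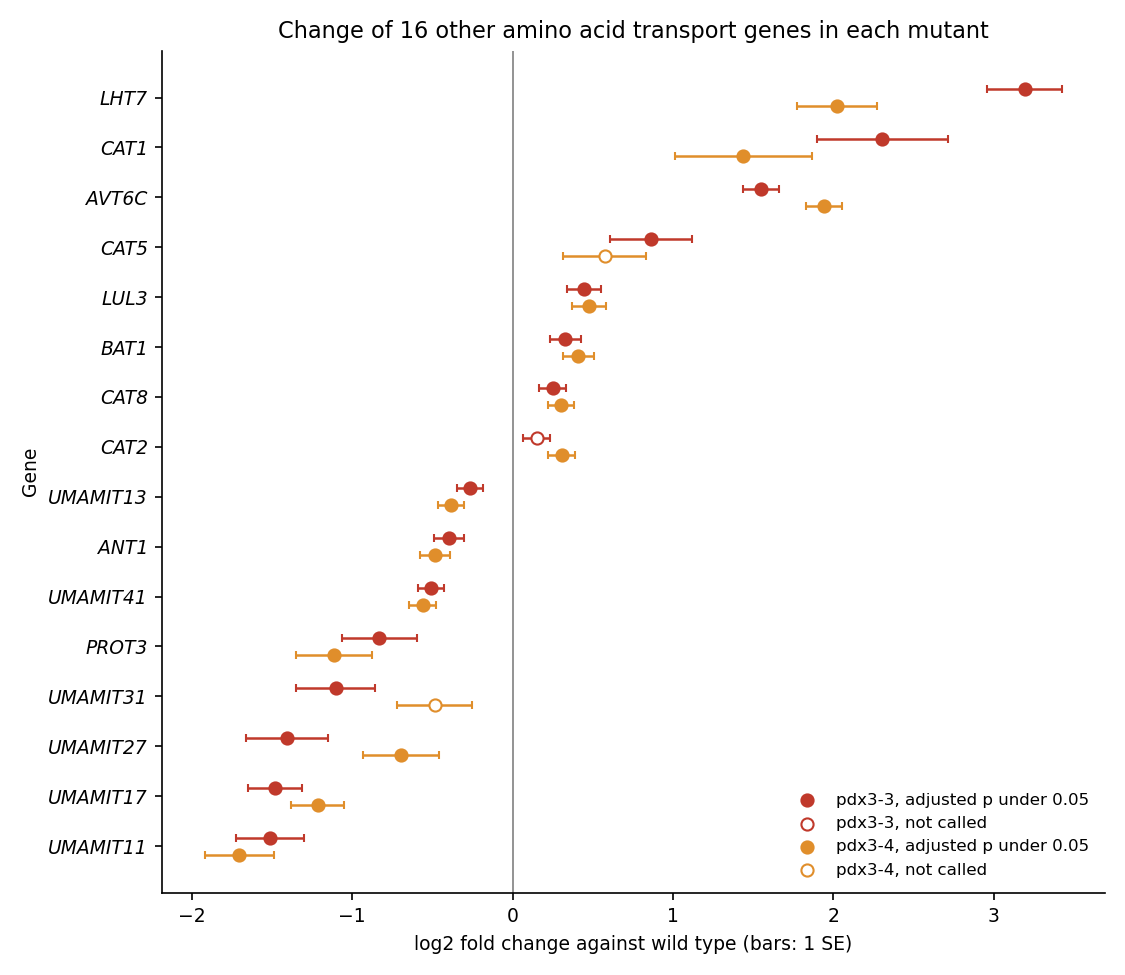
Log2 fold change against wild type of the 16 further genes named, in pdx3-3 (red) and pdx3-4 (orange), with bars of 1 SE, from edgeR's fit of all 9 libraries. Filled points have an adjusted p under 0.05. LHT7 stands at 3.19 and 2.02, and each UMAMIT gene shown lies below 0 in both mutants.

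For each of the 5 genes called in both mutants, the genes with the most similar course over the 9 libraries were found among 13744 genes of at least 5 CPM on average. The measure is the root-mean-square difference of log2 levels, each taken relative to the wild-type mean of its own gene. For LHT1 the nearest were AT1G34420 (0.158), CRK36 (0.170), a receptor-like kinase gene, and AGP5 (0.210), for an arabinogalactan protein. For AAP5 they were RAV2 (0.117), AT3G08030 (0.136) and TEM1 (0.143), RAV2 and TEM1 being related transcription factor genes. BGLU1 (0.0483), AT4G25260 (0.0859) and AT5G02670 (0.107) were nearest to AAP1. AT1G67860 (0.103), MYR1 (0.112) and AT5G54660 (0.142) were nearest to AAP4, and HB31 (0.182), AT3G18280 (0.190) and AT5G67350 (0.194) to UMAMIT28. These distances are descriptions over 3 libraries of each genotype, without a test.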

How the data were processed

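The authors deposited 1 table of raw counts per gene locus for each of 9 libraries, not normalized. Per the labels' protocols, RNA was polyA-selected with a stranded kit and the 9 libraries were pooled for sequencing on 1 platform. Per the submitters' processing notes, TopHat2 (version 2), FastQC and TAIR10 were used. Which program counted the reads, how it treated strand and reads with several matches is not given in the sources used here. Reads shared by overlapping or antisense genes therefore cannot be told apart. Groups follow the genotype in the labels. Replicate libraries differed by more than sampling noise (chi-square per degree of freedom 5.34 to 25.5), so each was counted once.

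CPM is the count divided by the library total. Tests used edgeR 4.0.16 in R 4.3.3 on the deposited counts: genes were kept with filterByExpr (minimum count 10, here 0.482 CPM in 3 libraries), which left 18783, scaled by TMM factors (0.949 to 1.03) and fitted over all 9 libraries by genotype alone (6 residual degrees of freedom, biological coefficient of variation 0.109). Adjusted p-values are Benjamini-Hochberg values of the quasi-likelihood test over all genes tested, called under 0.05, and every adjusted p in the text is from this test unless another tool is named. Fold changes are from the fit. The SE is the size of a log2 fold change over the root of its F statistic. A permutation test of 3 libraries against 3 cannot give a p below 0.10 and was not used. The pipeline was tested on simulated data.

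The 10 genes, the further lists and the markers were chosen with earlier results of these data known. The further genes named are, per mutant, the 6 called higher and the 6 called lower (fewer where fewer were called) with the smallest adjusted p in a list of 97. For each gene called in both mutants the 3 most similar genes are named. Names and positions come from RefSeq TAIR10.1, in which 32835 of 33602 loci matched. The file IDs carry no coordinates. The list of UMAMIT genes takes every locus with that symbol or a MtN21 description.

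Alternatives were median-of-ratios, upper-quartile or no scaling factors, no filter or 1 CPM in 3 libraries, DESeq2 1.42.0, limma-voom (limma 3.58.1), a block for the replicate number, fits of the 2 compared groups alone, each library left out, and, added after seeing the data, wild type 3 and pdx3-3 1 left out together.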

Additional observations from a re-analysis of the deposited data

Results flagged for a closer look

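Effects that differed between the mutants by a direct test are listed here. Log2 fold changes against wild type differed between pdx3-3 and pdx3-4 by 0.64 for AAP5 (1.35 in pdx3-3, 0.71 in pdx3-4, adjusted p = 0.0155, edgeR's quasi-likelihood test), a call lost without pdx3-3 2 (0.0580), pdx3-4 2 (0.0562) or pdx3-4 3 (0.0882). For LHT7 the difference was 1.17 (3.19 in pdx3-3, 2.02 in pdx3-4, adjusted p = 0.00556), and it held without any 1 library (adjusted p = 0.00423 to 0.0355). LHT7 passed the filter on low counts only through mutant libraries. The disrupted gene PDX3 differed by −2.29 (−3.25 in pdx3-3, −0.96 in pdx3-4, adjusted p = 8.56e-06). In all 3 genes the libraries of the mutants did not overlap. Groups of 3 libraries were not screened for outlying samples.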

How the results depend on the processing

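Under settings other than leaving out 1 library, 279 values of the 9 tested genes and PDX3, counted together, kept their direction and side of the threshold. Among the other values, 7 were newly called, 4 were no longer called and 2 turned. These 2 were AAP2 in pdx3-3 without wild type 3 and pdx3-3 1 together (log2 0.10) and in pdx3-4 with upper-quartile factors (−0.0257). Leaving out 1 library turned AAP2 in pdx3-4 (−0.0362 without wild type 1, −0.0681 without wild type 2, −0.00453 without pdx3-4 3, within −0.0681 to 0.46), AAP3 in pdx3-4 (−0.27 without wild type 2, within −0.27 to 0.93) and, between the mutants, AAP6 (0.0314 without pdx3-4 2, within −0.16 to 0.0314) and AAP4 (0.00997 without pdx3-4 3, within −0.23 to 0.00997). None of these values was called, and the cause was not tested.

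AAP6 was not called in pdx3-3 with library size alone (adjusted p = 0.0609, edgeR) or with only the 2 groups fitted (0.0593), and was called in pdx3-4 with upper-quartile factors (0.0253), no filter (0.0400) and DESeq2 (0.0225). Without wild type 3 and pdx3-3 1 together, AAP3 was called in pdx3-3 (0.0353), AAP2 in pdx3-4 (log2 0.46, 0.0432) and 2 of the 10 genes between the mutants, and neither AAP6 in pdx3-3 (log2 −0.29, 0.1435) nor UMAMIT28 in pdx3-4 (0.0630) was called.

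With 1 library left out, 5259 to 6832 genes were called in pdx3-3, 5837 to 7483 in pdx3-4 and 391 to 1816 between the mutants, against 1157 with all libraries (391 without pdx3-4 3, 521 without pdx3-3 2, 599 without pdx3-4 2, 1816 without wild type 3). Of the 10 genes, 3 to 4 were then higher and 3 to 4 lower in pdx3-3, 2 higher and 1 to 4 lower in pdx3-4 (1 without pdx3-4 2), and 0 to 1 higher between the mutants.

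Same-numbered libraries of different genotypes did not deviate together (r from −0.191 to 0.378 in 9 pairs, over 0.1 in 2, with 2 of 9 libraries closest to their own number), so the numbers are not taken to pair them. With the replicate block 6470 genes were called in pdx3-3, 6918 in pdx3-4 and 1089 between the mutants. The block brought AAP6 past the threshold in pdx3-4 (adjusted p = 0.0384) and changed no other call among the 10 genes. Of the further genes, CAT8 in pdx3-3 (0.0637) and UMAMIT27 in pdx3-4 (0.0591) were not called with the block. Of the 16 further genes named, 583 values kept direction and side, 42 were no longer called and 2 newly called.

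Depth limits AAP3, GDU1 and UMAMIT14, with 96, 108 and 7 counts over all libraries.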
